A study of Homo sapiens with 4 samples.

Results

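Long noncoding RNAs (lncRNAs) that act in the nucleus or regulate other genes were examined in untreated HaCaT keratinocytes, a human epidermal line that grows without limit in culture. The set held 9 genes chosen by symbol, MALAT1, NEAT1, KCNQ1OT1, H19, PVT1, TUG1, DANCR, TINCR and CRNDE, of 44591 genes in the count tables. Each of the 9 had 1 row. RNA-seq was performed on total RNA of 4 replicates of 1 condition, labelled as non-treatment, with no knockdown, irradiation or drug, so the design holds no comparison group and each gene is described across replicates. The labels name no passage, clone or culture date, and the files hold no measure of where in the cell an RNA lies. The files type 8 of the 9 genes as lncRNA and CRNDE as protein coding, and they describe TINCR as a ubiquitin domain containing gene.

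lncRNAs are transcripts that act as RNA. MALAT1 gathers in nuclear speckles, where splicing factors are stored, and NEAT1 is the scaffold on which paraspeckles form. KCNQ1OT1 and H19 belong to neighbouring imprinted domains of chromosome 11, in which 1 parental copy is silenced. In epidermis, DANCR is known for keeping progenitors undifferentiated, and TINCR for stabilising the messages of terminal differentiation with the RNA-binding protein STAU1. PVT1 lies beside MYC, TUG1 and CRNDE have been linked to chromatin-modifying complexes, and CRNDE lies beside the homeobox gene IRX5.

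Replicate 1 stood apart from the other libraries. It held 73082279 counted reads against 17056035 to 19745170 in replicates 2 to 4, and 76.1% of its reads fell on protein-coding genes against 95.3% to 96.4%. The summed level of 70 histone genes reached 82831 in replicate 1, against 389 to 1003 elsewhere. Levels are therefore given as reads per kilobase of the deposited gene length, scaled so that the protein-coding genes of each library sum to 1000000. Several results that rest on replicate 1, though not all, are also given without it. A count of 3 per kilobase corresponds to a level of 0.123 in replicate 1 and of 0.334 to 0.451 in the others. Keratinocyte markers were detected in 12 of 12 cases, with KRT14, the basal keratin, at 6824, 7642, 6547 and 6375 in replicates 1 to 4. Of the markers of other cell types, 2 of 8 fibroblast genes, 2 of 7 melanocyte genes and 1 of 6 leukocyte genes (CD68) had a mean level above 1. Their summed levels ranged from 5.20 to 9.70, from 3.97 to 9.16 and from 8.45 to 44.6, and PTPRC, the pan-leukocyte antigen, was at 0.02 in replicate 1 and at 0 in the others.

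The ends of MALAT1 and NEAT1 are shown first, since these 2 neighbouring genes of chromosome 11 had the highest means of the set, although NEAT1 ranked 5 in replicate 3. Both long transcripts end in a genomically encoded run rich in A that folds back on U-rich runs, in place of an added poly(A) tail, after RNase P has cut off a tRNA-like RNA. The 100 bases before that cut in MALAT1 (GRCh38, chr11:65506017-65506116, plus strand) and the last 100 bases of the long NEAT1 transcript (GRCh38, chr11:65445441-65445540, plus strand) are given from GENCODE release 29, with the runs of at least 9 bases that both share in capitals.
MALAT1 end: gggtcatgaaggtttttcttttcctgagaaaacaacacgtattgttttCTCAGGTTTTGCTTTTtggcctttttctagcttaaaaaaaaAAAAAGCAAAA
NEAT1 end: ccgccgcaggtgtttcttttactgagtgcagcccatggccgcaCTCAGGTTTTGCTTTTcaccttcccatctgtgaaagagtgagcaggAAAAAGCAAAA
The 2 ends share a run of 16 bases and, at the last base, a run of 11 bases. The longest run of A is 13 bases in MALAT1 and 5 bases in NEAT1. The 58 bases that follow in MALAT1 (GRCh38, chr11:65506117-65506174, plus strand) are the tRNA-like RNA, MASCRNA, shown because it has a row of its own in the tables.
MASCRNA: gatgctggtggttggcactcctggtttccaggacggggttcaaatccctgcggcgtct
MASCRNA had 0 counts in each of the 4 replicates, which allows up to 3 counts in each. The sources used here do not say how reads shared with MALAT1 were assigned, so the 0 does not speak to its level.

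MALAT1 (hg19, chr11:65265209-65273987, plus strand, 8779 bases) was the highest of the 9 genes in every replicate. It had 428938, 30972, 9406 and 14054 counts in replicates 1 to 4, and levels of 2011, 531, 119 and 215. The mean was 719 ± 879 (SD, n = 4), and 288 ± 215 (SD, n = 3) without replicate 1, so the SD exceeded the mean with replicate 1 and was smaller than it without. Replicate 1 lay above all others, and replicate 2 lay 4.45-fold above replicate 3. Its mean exceeded that of 98.5% of the detected protein-coding genes, and by replicate it ranked 1, 3, 22 and 12 among the lncRNA and lincRNA genes.

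NEAT1 (hg19, chr11:65190269-65213011, plus strand, 22743 bases) had 41730, 9595, 2208 and 11726 counts. Its levels of 75.5, 63.5, 10.8 and 69.2 were close in 3 replicates and low in replicate 3, with a mean of 54.7 ± 29.7 (SD, n = 4). The level was 47.8 ± 32.2 (SD, n = 3) without replicate 1. Per kilobase, MALAT1 had 26.6 times the reads of NEAT1 in replicate 1, with a 95% Clopper-Pearson interval from 26.4 to 26.9. Replicates 2 to 4 gave ratios of 8.36 (8.17 to 8.56), 11.04 (10.5 to 11.6) and 3.10 (3.03 to 3.18). No 2 of these intervals overlapped, so the balance of the 2 RNAs differed between every pair of libraries by more than counting error, the only error such intervals cover. The tables give 1 row per gene, so the short and the long NEAT1 transcript cannot be told apart.

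TUG1 (hg19, chr22:31365197-31375381, plus strand, 7667 bases) had 9153, 2033, 1123 and 2525 counts, and levels of 49.1, 39.9, 16.3 and 44.2. The mean was 37.4 ± 14.6 (SD, n = 4), and as for NEAT1, replicate 3 was the low one. NEAT1 had 1.54 (1.50 to 1.57), 1.59 (1.52 to 1.67) and 1.57 (1.50 to 1.63) times the reads of TUG1 per kilobase in replicates 1, 2 and 4, with overlapping intervals. In replicate 3 the ratio was 0.663 (0.617 to 0.713), and TUG1 was the higher of the pair.

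CRNDE (hg19, chr16:54952775-54963101, minus strand, 1422 bases) had 1169, 72, 124 and 151 counts and levels of 33.8, 7.62, 9.70 and 14.3 (mean 16.4 ± 12.0, SD, n = 4). DANCR (hg19, chr4:53578561-53586864, plus strand, 1785 bases) had 1204, 73, 231 and 218 counts and levels of 27.8, 6.15, 14.4 and 16.4 (mean 16.2 ± 8.90, SD, n = 4). Both were highest in replicate 1 and lowest in replicate 2. PVT1 (plus strand, 1940 bases), the neighbour of the growth regulator MYC, had 475, 344, 268 and 136 counts and levels of 10.1, 26.7, 15.4 and 9.41 (mean 15.4 ± 7.98, SD, n = 4). Unlike the other 8 genes, it was not highest in replicate 1 but in replicate 2. TINCR (hg19, chr19:5558178-5568045, minus strand, 3733 bases) had 3414, 215, 177 and 264 counts and levels of 37.6, 8.66, 5.28 and 9.49. Its mean of 15.3 ± 15.0 (SD, n = 4) became 7.81 ± 2.23 (SD, n = 3) without replicate 1, which lay 4.82-fold above the mean of the others.

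H19 (hg19, chr11:2016406-2022696, minus strand, 2597 bases) and KCNQ1OT1 (hg19, chr11:2629558-2721228, minus strand, 91671 bases), the 2 imprinted genes, were the lowest of the set in every replicate. H19 had 417, 11, 11 and 13 counts and levels of 6.61, 0.637, 0.471 and 0.672. Its mean of 2.10 ± 3.01 (SD, n = 4) passed the detection limit, a mean level above 1, through replicate 1 alone, since the mean of replicates 2 to 4 was 0.593 ± 0.107 (SD, n = 3). KCNQ1OT1 had 3029, 347, 97 and 242 counts, but spread over the longest deposited length of the 9 genes they gave levels of 1.36, 0.569, 0.118 and 0.354. It had a mean of 0.600 ± 0.539 (SD, n = 4) and was the 1 gene of the 9 under the detection limit. It had more than 3 counts in every replicate, as did the other 8.

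**Figure D1:**
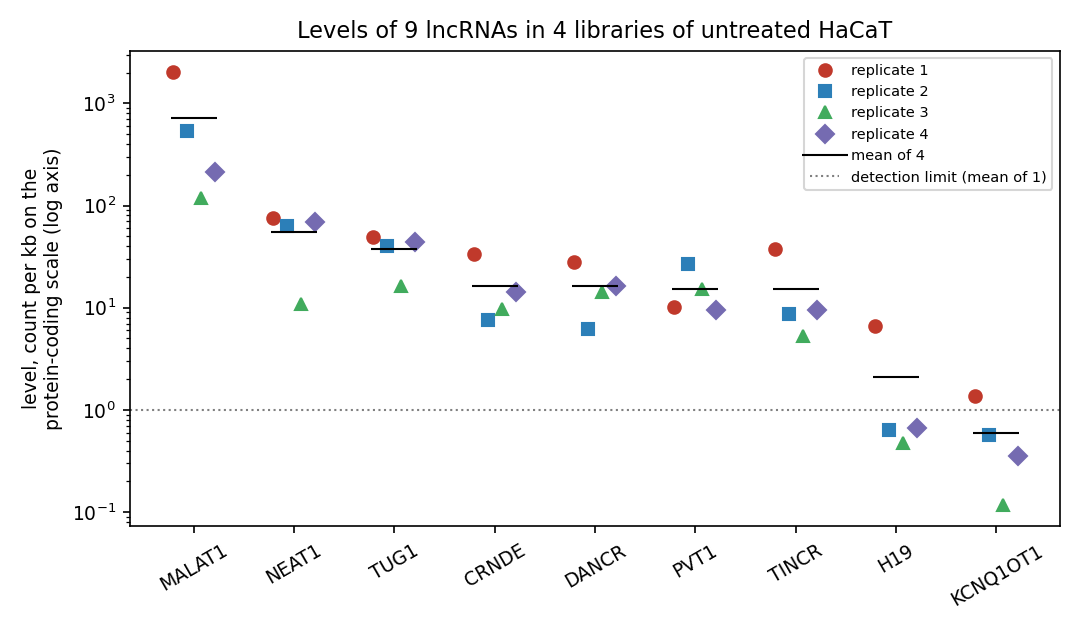
Level of each lncRNA (reads per kilobase on the scale on which protein-coding genes sum to 1000000, log axis) in replicates 1 to 4, in the order of their means over the 4 replicates (black bars), with the detection limit dotted. MALAT1 sits between 119 and 2011, above the other 8 genes in each replicate, and H19 and KCNQ1OT1 lie below 1 in replicates 2 to 4.

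In the order of mean levels, the 9 genes ran MALAT1, NEAT1, TUG1, CRNDE, DANCR, PVT1, TINCR, H19 and KCNQ1OT1. Without replicate 1 the middle of this order changed, with means of 17.2 for PVT1, 12.3 for DANCR, 10.5 for CRNDE and 7.81 for TINCR. The 8 differences between neighbours were tested within replicates on the log2(level + 1) scale with a two-sided exact sign-flip permutation test, which with 4 replicates cannot go below p = 0.125 and so cannot reach 0.05. The order came from the same 4 replicates, so the p-values give no independent support for it. MALAT1 was above NEAT1 by 3.18 ± 1.27 (SD, n = 4), in 4 of 4 replicates (exact p = 0.125, Benjamini-Hochberg adjusted over the 8 pairs 0.25). TUG1 was above CRNDE by 1.26 ± 0.80 and TINCR above H19 by 2.41 ± 0.25, each in 4 of 4 replicates and with the same exact p of 0.125 (adjusted 0.25). These 3 steps were larger than their SD over replicates. H19 lay above KCNQ1OT1 in 4 of 4 replicates by 0.61 ± 0.73, no more than its SD (exact p = 0.125, adjusted 0.25). The step from NEAT1 to TUG1 of 0.34 ± 0.59 was also within its SD (3 of 4 replicates, exact p = 0.25, adjusted 0.40). CRNDE, DANCR, PVT1 and TINCR could not be ordered: the differences of -0.04 ± 0.39, 0.02 ± 1.44 and 0.27 ± 1.55 each had 2 replicates on either side (exact p = 1 for each, adjusted 1). CRNDE is the exception where its length is changed: the exon union of GENCODE release 29 is 5846 bases in place of 1422, and with such lengths, an alternative chosen after the data were seen, CRNDE minus DANCR was -1.45 ± 0.37 (SD, n = 4, exact p = 0.125, the smallest possible). Without length correction the difference was -0.34 ± 0.38 (exact p = 0.125). MALAT1 was first, H19 eighth and KCNQ1OT1 ninth in all 4 replicates, whereas PVT1 ranked from 3 to 7 and TINCR from 4 to 7.

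Replicate 1 was compared with replicates 2 to 4 as a description, with no test, since 1 library faced 3. On the protein-coding scale, 6 of the 8 detected lncRNAs had a log2(level + 1) at least 2-fold above the mean of replicates 2 to 4, where 20.3% of 16450 detected genes and 23.4% of 1397 detected lncRNA and lincRNA genes did so. No detected gene of the set was at least 2-fold below, against 22.3% of all detected genes and 24.8% of lncRNA and lincRNA genes. The differences were 3.07 for MALAT1, 2.26 for H19, 2.17 for TINCR, 1.64 for CRNDE, 1.21 for DANCR and 1.02 for NEAT1. TUG1 at 0.66 and PVT1 at -0.60 stayed within 2-fold, as did KCNQ1OT1, which was not detected, at 0.82. For so low a gene the added 1 shrinks the difference. The KCNQ1OT1 level itself in replicate 1 was 3.92-fold the mean level of replicates 2 to 4. The median over the 8 detected lncRNAs was 1.42, beside 0.05 over all detected genes and 0.16 over lncRNA and lincRNA genes. Of the 7 genes whose mean over replicates 2 to 4 alone was above 1, 5 were at least 2-fold higher in replicate 1, against 16.7% of 16014 such genes. Replicate 1 exceeded each of the others for 7 of the 8 detected genes, a pattern that 40.1% of all detected genes had. The call for NEAT1 rests on replicate 3, without which its difference was 0.19, and that for DANCR on replicate 2, without which it was 0.81.

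These directions depend on the scale. In TPM over all genes, which also counts the reads of genes other than protein-coding ones, the median over detected genes shifted by -1.29 to -1.24, with 3.44% of 15401 genes at least 2-fold higher and 59.7% lower. On that scale 1 of 7 detected lncRNAs, MALAT1 at 1.53, was at least 2-fold higher, and 1, PVT1 at -1.88, was at least 2-fold lower. NEAT1 at -0.48, TUG1 at -0.82 and DANCR at -0.23 then lay below replicates 2 to 4, while TINCR at 0.69, CRNDE at 0.18 and H19 at 0.99 lay above. The part of the RNA classes in replicate 1 in these differences was not tested.

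Among replicates 2 to 4, 5 of the 8 detected lncRNAs had a range of log2(level + 1) of at least 2-fold, where 28.8% of all detected genes and 37.1% of detected lncRNA and lincRNA genes did. The ranges were 2.57 for NEAT1, 2.14 for MALAT1, 1.41 for PVT1, 1.39 for TUG1 and 1.28 for DANCR. CRNDE at 0.82, TINCR at 0.74 and H19 at 0.18 stayed under 2-fold. The median range was 1.33, beside 0.70 over all detected genes and 0.81 over lncRNA and lincRNA genes. Left out in turn, replicates 2, 3 and 4 took the count from 5 to 2, 3 and 4.

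**Figure D2:**
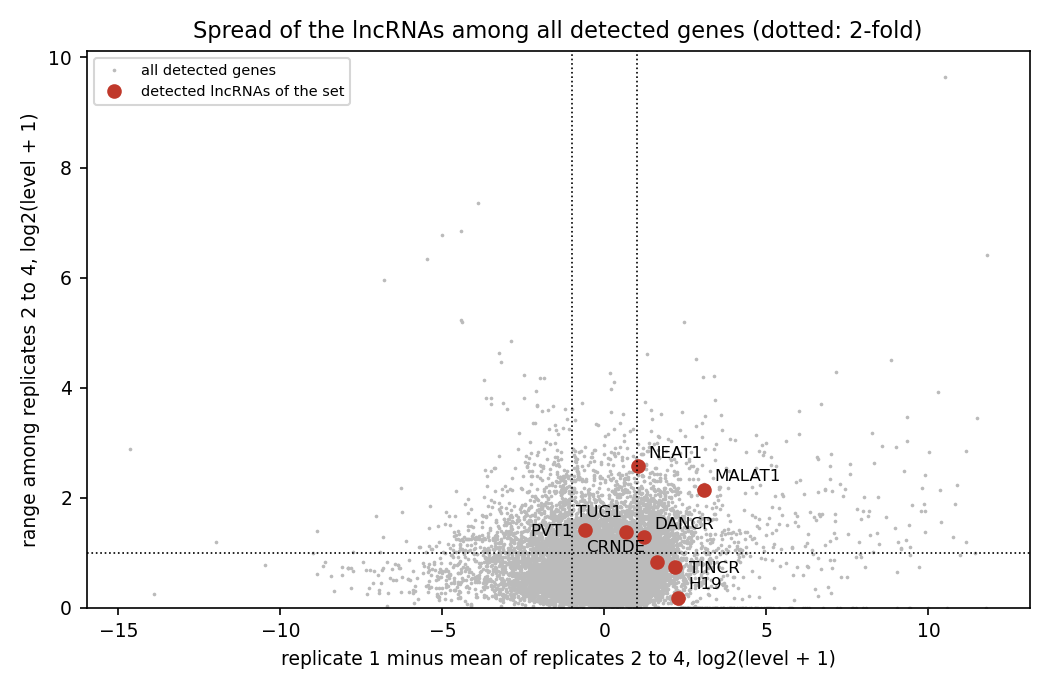
Each detected gene (grey) and the 8 detected lncRNAs (red) by the difference of replicate 1 from the mean of replicates 2 to 4 (horizontal axis) and by the range among replicates 2 to 4 (vertical axis), both in log2(level + 1) on the protein-coding scale, with 2-fold dotted. MALAT1 lies at 3.07 and 2.14, NEAT1 has the widest range of the 8 at 2.57, and H19 and TINCR differ by more than 2 between replicate 1 and the others with ranges under 1.

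Replicate 3 was the lowest of replicates 2 to 4 for 5 of the 8 detected lncRNAs, as it was for 58.8% of all detected genes. The 4 genes with a deposited length of at least 7 kb, MALAT1, NEAT1, TUG1 and KCNQ1OT1, were all lowest there. Of the 5 shorter genes, 2 (H19 and TINCR) were. The 7 kb limit was chosen after the values were seen. Against the mean of replicates 2 and 4, the log2(level + 1) of replicate 3 differed by -2.51 for NEAT1, -1.49 for MALAT1, -1.31 for TUG1 and -0.38 for KCNQ1OT1, and by -0.68 for TINCR, -0.17 for H19, -0.10 for CRNDE, -0.05 for PVT1 and 0.47 for DANCR. Length moved with this difference across all detected genes as well: the median was -0.85 over 1338 genes of at least 7 kb, of which 92.9% were lowest in replicate 3, and -0.29 over 15112 shorter genes, of which 55.8% were. The part of length in the low NEAT1, MALAT1 and TUG1 of replicate 3 was not tested.

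**Figure D3:**
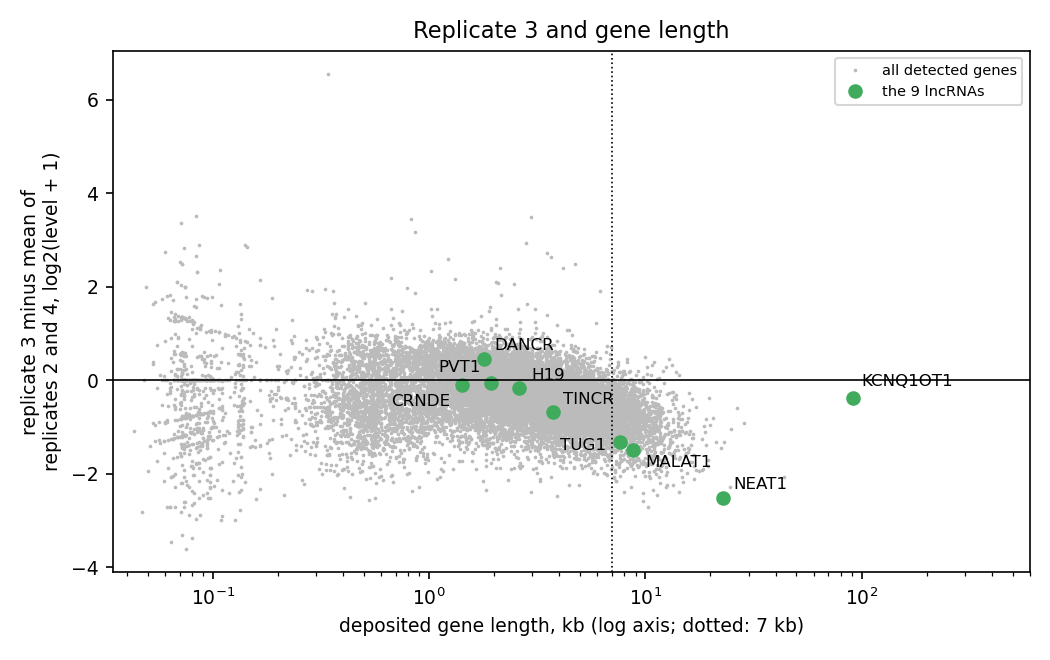
Difference of replicate 3 from the mean of replicates 2 and 4 in log2(level + 1) against the deposited gene length in kb (log axis, 7 kb dotted) for all detected genes (grey) and the 9 lncRNAs (green). The cloud bends below 0 among the longest genes, and NEAT1 at -2.51, MALAT1 at -1.49 and TUG1 at -1.31 lie in that part of it.

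Some antisense genes, though not all, set the libraries apart further. TALAM1 is transcribed from the strand opposite to MALAT1, and 7205 of the bases it spans (88.7% of its deposited length of 8121) overlap MALAT1. TALAM1 had 422 counts in replicate 1 and 29480, 8786 and 12898 in replicates 2 to 4. As a share of the MALAT1 count this was 0.0984% for replicate 1, with a 95% interval from 0.0892% to 0.108%. Replicates 2 to 4 had shares of 95.2% (93.7 to 96.7), 93.4% (90.7 to 96.2) and 91.8% (89.6 to 94.0). The 2 genes thus had nearly the same count in 3 libraries and counts far apart in 1. For TUG1, the lincRNA ENSG00000269987.1 on the opposite strand had 8, 81, 34 and 90 counts, which is 0.0874% of the TUG1 count in replicate 1 and 3.98%, 3.03% and 3.56% in the others. TMEM75, opposite to PVT1, had 0.842% of the PVT1 count in replicate 1 and 3.49%, 1.87% and 5.88% in the others, on 4, 12, 5 and 8 counts. The lincRNA ENSG00000269972.1, also opposite to TUG1, had 0, 11, 1 and 10 counts. HOTS, opposite to H19 and described below, likewise had its lowest share in replicate 1. The remaining opposite-strand genes did not have this pattern. ENSG00000270117.1, opposite to MALAT1 and within it, had 15, 1, 0 and 1 counts. KCNQ1, opposite to KCNQ1OT1, had 1.88%, 1.44%, 3.09% and 1.24% of its count in replicates 1 to 4, on 57, 5, 3 and 3 counts. The spans of these genes overlap over 91671 bases, whereas the deposited length of KCNQ1 is 3507 bases. Most of the overlap thus lies outside the KCNQ1 exons, so this pair says little about the pattern. The strand setting of the counting is not given in the sources used here, and where strand is not used, reads of a gene and of its antisense partner cannot be told apart.

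**Figure D4:**
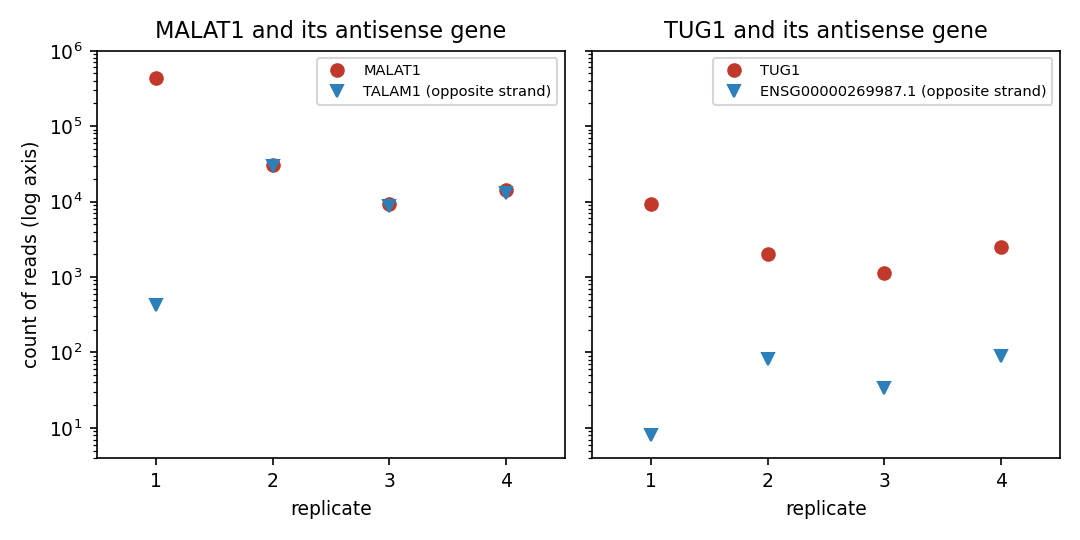
Counts of MALAT1 and its antisense gene TALAM1 (left) and of TUG1 and its antisense lincRNA (right) in replicates 1 to 4, on a log axis. The MALAT1 and TALAM1 points lie on each other in replicates 2 to 4 and apart in replicate 1, at 428938 and 422 counts.

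At the H19 locus, HOTS lies on the opposite strand and overlaps H19 over 1119 bases. It had 78, 19, 14 and 28 counts, fewer than H19 in replicate 1, at 18.7% of its count (95% interval 14.5 to 23.9). In replicates 2 to 4 it had 173% (78.1 to 402), 127% (53.7 to 310) and 215% (108 to 453), and the first 2 of these intervals include equal counts. H19 is also the precursor of miR-675, whose mature forms are given from RefSeq (GRCh38.p14, chr11:1996800-1996822 and chr11:1996768-1996787, minus strand) with the seed, bases 2 to 8, in capitals.
hsa-miR-675-5p: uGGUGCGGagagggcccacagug
hsa-miR-675-3p: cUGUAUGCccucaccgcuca
The precursor MIR675 had 0 counts in all 4 replicates, which allows up to 3 counts in each. How reads shared with the host gene were assigned is not given in the sources used here, so the 0 does not speak to the level of miR-675. KCNQ1, the potassium channel gene that KCNQ1OT1 crosses on the opposite strand, had 57, 5, 3 and 3 counts and was not detected. Per kilobase KCNQ1OT1 had 2.03, 2.65, 1.24 and 3.09 times its reads, and the last 2 ratios rest on 3 KCNQ1 counts each.

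The neighbours of H19 and KCNQ1OT1 in 11p15.5 were described from a list of 13 genes, of which 6 were detected. CDKN1C, an inhibitor of cyclin-dependent kinases, was the 1 gene at least 2-fold higher in replicate 1 on the protein-coding scale, with levels of 5.59, 0.16, 0.86 and 0.76, and it passed the detection limit through replicate 1 alone: of the 5 genes whose mean over replicates 2 to 4 was above 1, 0 were higher. PHLDA2, a growth-restraining gene of the placenta, was the 1 gene at least 2-fold lower, with 19.1, 226, 226 and 183. IGF2, the fetal growth factor next to H19, was at 0, 0.02, 0.28 and 0 and was not detected. The median difference of replicate 1 over the 6 genes was 0.07, close to the 0.05 of all detected genes. In TPM over all genes CDKN1C was not detected and the 5 detected genes were at least 2-fold lower, on a scale where 59.7% of all genes were.

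DANCR hosts a box H/ACA snoRNA and a miRNA, and both were seen in replicate 1. SNORA26 (GENCODE release 29, GRCh38, chr4:52713249-52713370, plus strand) is shown with its ACA box in capitals, and hsa-miR-4449 (RefSeq, GRCh38.p14, chr4:52712720-52712741, plus strand) with its seed in capitals.
SNORA26: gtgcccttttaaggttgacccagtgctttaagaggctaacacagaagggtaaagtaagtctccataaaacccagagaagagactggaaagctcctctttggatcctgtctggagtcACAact
hsa-miR-4449: cGUCCCGGggcugcgcgaggca
SNORA26 had 68 counts in replicate 1 and 0, 1 and 0 in replicates 2 to 4, and MIR4449 had 26 counts in replicate 1 and 0 in each of the others. DANCR itself had 73 to 231 counts in those 3 libraries. Replicate 1 was also the deepest library, with 73082279 counted reads. The assignment of reads shared with a host gene is not given, so these counts cannot be told apart from reads of DANCR. PVT1 hosts 4 miRNAs, MIR1204 to MIR1207, none of which had more than 5 counts in any replicate, and MIR612 within NEAT1 had 0 in all 4, which allows up to 3 counts in each. The same limit on shared reads holds for these miRNAs. CRNDE and TINCR overlapped no other gene of the files.

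For TINCR, a list of 20 partner and differentiation genes was examined, of which 13 were detected. STAU1, the protein that TINCR binds, had levels of 84.7, 135, 109 and 147, so it was 0.60 lower in replicate 1 on the log2(level + 1) scale. Its paralogue STAU2 had 24.8, 9.30, 6.95 and 13.5. On the protein-coding scale, 10 of the 13 were at least 2-fold higher in replicate 1, as TINCR was, and 0 were lower, against 20.3% and 22.3% of all detected genes, with a median difference of 1.70. The suprabasal keratins KRT1 (124, 0.43, 0.54 and 0.22) and KRT10 (229, 31.3, 52.4 and 47.4) were among them, as were IVL, an envelope protein (202, 5.49, 4.06 and 14.9), and CALML5 (30.5, 1.03, 0.13 and 1.84). MAF, a transcription factor of epidermal differentiation, had levels of 5.51, 0.07, 0.06 and 0.27. FLG, GRHL3 and STAU1 were the 3 within 2-fold. KRT1, CALML5 and MAF passed the detection limit through replicate 1 alone. Of the 10 genes whose mean over replicates 2 to 4 was above 1, 7 were at least 2-fold higher in replicate 1, against 16.7% of 16014 such genes. In TPM over all genes 4 of 12 were at least 2-fold higher and 2 lower, beside 3.44% and 59.7% of all genes, with KRT1, IVL, CALML5 and SPRR1B still higher by 4.87, 3.11, 2.54 and 1.49, and STAU2 turned to -0.15. Loricrin (LOR), a late marker of the cornified layer, was at 0.23, 0, 0 and 0.33 and was not detected.

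**Figure D5:**
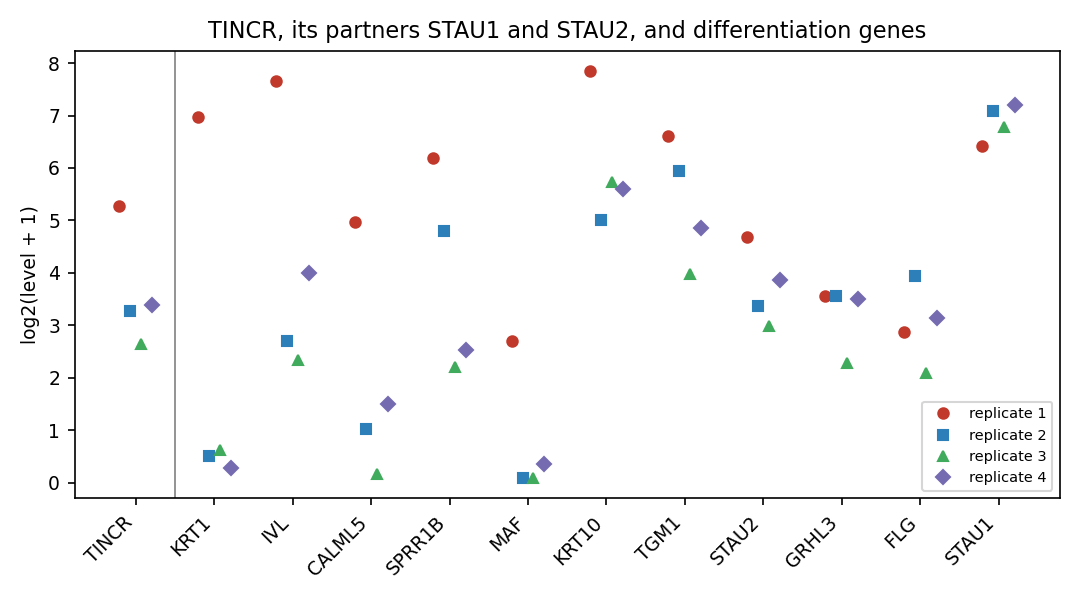
Levels of TINCR (left of the line) and of 11 of the 13 detected genes of the partner and differentiation list, as log2(level + 1) on the protein-coding scale, in replicates 1 to 4. Replicate 1 is the highest for TINCR and for KRT1, IVL, CALML5 and KRT10, and the lowest for STAU1.

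For MALAT1 and NEAT1, the proteins of their nuclear bodies were described. All 16 listed paraspeckle proteins were detected. On the protein-coding scale 2 were at least 2-fold higher in replicate 1 and 7 lower, with a median of -0.82, beside 20.3%, 22.3% and 0.05 over all detected genes. NONO and SFPQ, the pair of proteins that bind NEAT1 at the paraspeckle core, had levels of 327, 310, 299 and 323, and of 183, 288, 302 and 298. NONO thus varied little while NEAT1 varied 6.41-fold among replicates 2 to 4. TAF15 had 32.8, 116, 143 and 311 and was lowest in replicate 1, where NEAT1 was highest on the protein-coding scale. In TPM over all genes NEAT1 had 23.4, 56.2, 9.45 and 64.3 in replicates 1 to 4 and was highest in replicate 4. MATR3 (189, 82.2, 66.1 and 99.7) and NUDT21 (192, 89.8, 83.0 and 95.4) were the 2 higher genes, and in TPM over all genes they turned to -0.32 and -0.43, with 14 of 16 proteins at least 2-fold lower and 0 higher, beside 59.7% and 3.44% of all genes.

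All 18 nuclear speckle and SR proteins were detected, with 1 at least 2-fold higher in replicate 1, 3 lower and a median of -0.31, where 20.3% and 22.3% of all detected genes were higher and lower. SRRM2, a core protein of speckles, had levels of 15.0, 216, 99.6 and 154, the reverse of MALAT1 in replicate 1. SRSF5 was the 1 higher gene at 314, 157, 141 and 124, and its difference was -0.37 in TPM over all genes, where 0 proteins were higher and 13 lower, beside 3.44% and 59.7% of all genes. Of 15 factors that cut the ends of MALAT1 and NEAT1 or act on their stability, all detected, 0 were at least 2-fold higher and 2 lower, with a median of -0.11, against the same 20.3% and 22.3%. The 2 were the RNase P subunits RPP21 (10.0, 82.3, 135 and 80.0) and RPP25 (5.61, 21.9, 13.8 and 12.7). METTL16, which binds the MALAT1 end, had 20.5, 27.0, 22.8 and 23.4. In TPM over all genes 12 of the 15 were lower and 0 higher, again beside 59.7% and 3.44%.

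All 14 Polycomb and H3K9 methylation enzymes, the class to which KCNQ1OT1 and TUG1 have been linked, were detected. On the protein-coding scale 1 was at least 2-fold higher in replicate 1, 3 lower and the median was -0.04, near the 0.05 of all detected genes, of which 20.3% were higher and 22.3% lower. EZH2, the H3K27 methyltransferase, had 34.6, 38.9, 35.6 and 33.2. SETDB1 was the higher gene at 45.7, 29.6, 15.9 and 22.3, and of the 3 lower genes BMI1 had 0.66, 22.3, 19.4 and 28.7. SETDB1 turned to -0.45 in TPM over all genes, where 12 of the 14 were lower and 0 higher, beside 59.7% and 3.44% of all genes.

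Of 14 genes beside the other lncRNAs of the set, 11 were detected, with 1 at least 2-fold higher in replicate 1, 6 lower and a median of -1.04, beside 20.3%, 22.3% and 0.05 over all detected genes. MYC, beside PVT1, had levels of 24.6, 283, 165 and 150, so MYC and PVT1 were both highest in replicate 2. For CRNDE, IRX5 had 18.9, 17.7, 27.4 and 17.9 and IRX3 had 73.9, 20.9, 34.6 and 51.6, and IRX3 and CRNDE were both highest in replicate 1 and lowest in replicate 2. IRX3 was the higher gene and turned to -0.38 in TPM over all genes, where 9 of 11 genes were lower and 0 higher, beside 59.7% and 3.44% of all genes. Beside TINCR, SAFB had 22.03, 100.1, 101.1 and 113.6, the reverse of TINCR in replicate 1.

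Genes with the most similar profile were sought for each detected lncRNA by the Euclidean distance of log2(level + 1), centred over the 4 replicates, among genes with a mean within 4-fold. With 4 points this is a description. For MALAT1 the nearest of 902 genes were DSG3, a desmosomal cadherin (distance 0.680; levels 578, 139, 39.9 and 104), and MIR205HG, the host of an epithelial miRNA (1.09). NEAT1 was nearest to ANO9 (0.265) and GOLGA4 (0.340), a Golgi protein with levels of 43.0, 25.7, 4.98 and 35.1. TUG1 was nearest to CENPJ, a centriole protein (0.0423), and PLOD2, a collagen lysyl hydroxylase (0.0513). TINCR was nearest to the snoRNA SNORD47 (0.0524) and to ARAP2 (0.0953), CRNDE to TESK2 (0.117) and RMDN1 (0.148), and DANCR to ZNF428 (0.199) and C8orf82 (0.254). PVT1 was nearest to ST6GALNAC5 (0.226) and to ZC3HAV1 (0.229), the zinc finger antiviral protein, at 28.3, 67.8, 49.7 and 27.5. H19 was nearest to CNTN4 (0.0362) and RBBP8NL (0.0481), which like H19 were seen mainly in replicate 1.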

How the data were processed

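RNA-seq of 4 replicates of untreated HaCaT was analysed as 1 group, with replicate numbers from the labels. The authors deposited raw read counts per gene for each replicate, with gene length and position. RPKM values of replicates 1 and 2 and TPM values of replicates 3 and 4 were deposited too, and were not used here because the unit differs between replicates. The submitters' processing notes name HISAT2, TopHat2, Bowtie2, HISAT and the build hg19, without roles. The counting program, annotation, strand setting and RNA selection are not given in the sources used here.

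Counts per kilobase of deposited length were scaled so that protein-coding genes sum to 1000000, and compared as log2(level + 1), which understates the change of low genes. Genes with a mean level above 1 were called detected, and 2-fold on the log2 scale was counted. Total counts were 17056035 to 73082279, and intervals (95%, Clopper-Pearson) cover counting error only, as reads are not independent molecules. Nothing in the labels says that the replicates came from separate cultures, although the study calls them biological repeats, so p-values measure the spread between these samples. Neighbours in the order of levels were compared within replicates by an exact permutation test (two-sided, signs flipped).

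The members and gene lists were chosen with earlier results of these data known. All members were named, with the leading genes of each list by level, partners and neighbours, genes past 2-fold, and the 2 nearest profiles of each detected member. Some genes of the lists count in the totals and are not reported here by name. Other scalings, pseudocounts, filters and lengths and leaving out each replicate were tried as alternatives, and the counting of 2-fold differences was tested on simulated data (200 genes raised 4-fold in 1 library, of 15917 detected, of which 99% were called, and 0.986% of the other genes). Apart from noise and the raised genes, the simulated libraries had the same gene shares, unlike replicate 1 here. The simulation therefore checks the counting only and gives no error rate for the calls in these data. GENCODE release 29 exon lengths, TALAM1 reads added to MALAT1 in replicate 1 (422 reads, too few to move it), and detection from replicates 2 to 4 were chosen after seeing the data. TALAM1 reads were not added in replicates 2 to 4, where they numbered 29480, 8786 and 12898. How far the MALAT1 difference depends on these reads was therefore not tested. Sequences are from GENCODE release 29 (GRCh38) and RefSeq (GRCh38.p14), and positions in hg19 are those of the files. Software was matplotlib 3.10.9, SciPy 1.17.1, pandas 2.3.3, NumPy 2.4.6 and Python 3.11.15.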

Additional observations from a re-analysis of the deposited data

Results flagged for a closer look

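In 13 sets of 4 values, the gap of the most distant replicate to its neighbour was compared with the whole range. Against Dixon's 95% limit for 4 samples, 4 sets passed, where chance flags about 1 in 20 (0.65 sets). In 3 of the 4 passing sets the distant sample was replicate 1, which stood apart as a library. Several of the 13 sets share genes, and all share the same 4 libraries, so they are not independent. The genes were also chosen with earlier results of these data known. The number of flags was therefore not tested against 0.65. The H19 level was 6.61 in replicate 1, and the nearest other value was 0.672. The TINCR level was 37.6 in replicate 1, with the nearest at 9.49. The TALAM1 count as a share of the MALAT1 count was 0.0984% in replicate 1, with the nearest at 91.8%. The NEAT1 level over the TUG1 level was 0.663 in replicate 3, with the nearest at 1.54.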

How the results depend on the processing

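No paired analysis was possible because the study holds 1 group, so replicate numbers pair no groups. In TPM over all genes, 1 lncRNA in place of 6 was at least 2-fold higher in replicate 1 and 1 in place of 0 was lower. The differences of NEAT1 (-0.48), DANCR (-0.23) and TUG1 (-0.82) changed sign on that scale, and that of TUG1 was within 2-fold on both scales. Leaving out replicate 2, 3 or 4 gave 5 to 6 genes higher in replicate 1 and 2 to 4 with a 2-fold range. The 4 genes of middle level changed order. CRNDE minus DANCR ranged from -0.15 to 0.12 with 1 replicate left out, and was -0.34 without length correction and -1.45 with exon lengths of GENCODE release 29, under which CRNDE is 5846 bases long in place of 1422 and TUG1 minus CRNDE rose from 1.26 to 2.61. DANCR minus PVT1 ranged from -0.43 to 0.68, and was -0.088 in counts without length correction and -0.016 in TPM over all genes. PVT1 minus TINCR ranged from -0.14 to 0.96, and was -0.60 without length correction and -0.83 with those exon lengths, under which PVT1 is 5493 bases long in place of 1940. H19 minus KCNQ1OT1 was -2.86 without length correction, as KCNQ1OT1 is the longest of the set. With a pseudocount of 0.1 the replicate 1 differences of H19 and KCNQ1OT1 became 3.29 and 1.85. Of 205 alternative values, single levels included, 13 moved, 13 reversed and 179 kept direction and side or moved by less than the spread between replicates. TUG1 in TPM over all genes is counted among the 13 that moved, although its difference changed sign. Single levels have no direction to reverse, and all of them fell among the 179. So did NEAT1 without replicate 3 (0.19) and DANCR without replicate 2 (0.81), although both then lay under 2-fold. With 3 replicates the exact test cannot go below 0.25. The depth of replicates 2 to 4 limits H19 (11 to 13 counts), KCNQ1 (3 to 5) and the small RNAs within the lncRNAs (0 to 5).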

Other observations

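Other regulatory lncRNAs were described from a list of 52, of which 46 were found in the files by symbol and 26 were detected. On the protein-coding scale 8 were at least 2-fold higher in replicate 1 and 3 lower, with a median difference of 0.74, beside 20.3%, 22.3% and 0.05 over all detected genes. Of the 25 genes whose mean over replicates 2 to 4 was above 1, 7 were higher and 3 lower. The share higher among all 16014 such genes was 16.7%. In TPM over all genes 2 of 24 were higher, TERC and FTX, and 7 lower, where 3.44% and 59.7% of all genes were. TERC, the RNA template of telomerase, had levels of 2913, 16.7, 2.22 and 0.60 in replicates 1 to 4. FTX, a lncRNA of the X inactivation centre, had 12.4, 1.72, 0.90 and 0.97. NORAD, a cytoplasmic lncRNA that binds Pumilio proteins, had 424, 185, 96.2 and 239, and its difference of 1.38 turned to -0.15 in TPM over all genes. The 3 lower genes were CYTOR (0.56, 88.9, 78.5 and 40.2), BCYRN1 (11.7, 115, 87.9 and 89.9) and UCA1 (146, 524, 266 and 768). HOTAIR was at 5.86, 4.37, 1.34 and 4.01, and MEG3 was not detected, at 0, 0.18, 0.06 and 0.06.

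Of the 12 keratinocyte markers, 6 were at least 2-fold higher in replicate 1 and 2 lower on the protein-coding scale, with a median of 0.85, beside the same 20.3%, 22.3% and 0.05. Scaled as TPM over all genes, 2 were higher and 4 lower, beside 3.44% and 59.7% of all genes. KRT15, a keratin of basal cells, had levels of 13064, 458, 239 and 1308, and the summed level of the list was 29963, 15322, 11703 and 14287.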
